A study of Homo sapiens with 8 samples.

Results

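The 10 chemokine genes CXCL1, CXCL2, CXCL3, CXCL5, CXCL6, CXCL8, CCL20, CCL2, CCL5 and CX3CL1 were followed across the 4 groups of a stimulation experiment in DU145, a cell line from a human prostate carcinoma. They were chosen by name, with earlier results of these data known, as were the lists of other genes below. Shares and medians set beside those of all probesets therefore describe these genes and are not a test of them as a set. Each probeset, the set of probes that reports 1 transcript, was taken where the annotation of the array platform gave 1 of these symbols. Each gene had 1 such probeset among the 33297 on the array, and 0 further probesets listed a member beside other genes. Duplicate arrays, which the labels call biological replicates, were hybridised for each group on Affymetrix Human Gene ST chips. Serum-starved cells received 50 ng/ml FGF19 with 100 µg/ml heparin and, 10 min later, 50 ng/ml TNFα for 90 min (FGF19 + TNFα), TNFα alone for 90 min, FGF19 with heparin alone for 100 min (FGF19), or were left untreated (Mock). These doses are those of the sample labels, and the methods of the paper give lower ones for heparin and TNFα. Heparin was named only for the groups given FGF19, so FGF19 and heparin cannot be told apart. The signal is a summary of probe brightness in the units of PLIER, the algorithm that the submitters used, on a linear scale.

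Chemokines are small secreted proteins that direct the migration of leukocytes along a concentration gradient. TNFα, an inflammatory cytokine, activates NFκB, which enters the nucleus and binds κB sites in the promoters of many chemokine genes. FGF19 is a ligand of the receptor tyrosine kinase FGFR4. CXCL1, CXCL2, CXCL3, CXCL5, CXCL6 and CXCL8 carry a glutamate-leucine-arginine motif before their paired cysteines and attract neutrophils through the receptor CXCR2, and CXCL6 and CXCL8 also through CXCR1. CCL20 is the ligand of CCR6 on dendritic cells and lymphocytes. CCL2 attracts monocytes through CCR2, CCL5 attracts T cells and monocytes, and CX3CL1, made as a membrane protein that proteases shed, is the ligand of CX3CR1.

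The 6 CXC genes lie on chromosome 4 in the order CXCL8, CXCL6, CXCL1, CXCL5, CXCL3 and CXCL2, with the platelet chemokine genes PF4V1, PF4 and PPBP between them. CCL20 lies on chromosome 2, CCL2 and CCL5 on chromosome 17 and CX3CL1 on chromosome 16. RefSeq promoter windows of the build GRCh38.p14 matched 7 of the 10 genes. The 250 bases before each annotated start were searched on both strands for 4 motifs. These were the letters GGANNTTCC, the κB consensus of 10 letters, which overlaps that shorter motif, the AP-1 letters TGANTCA and the TATA letters TATAAA. GGANNTTCC was found before all 6 CXC genes, and in 3.84% of all 35116 windows. The κB consensus was found before CXCL1, CXCL2, CXCL3, CXCL5, CXCL6 and CCL20, and in 9.96% of windows. CXCL8 held the shorter motif without the longer one, and it was the 1 gene of the 7 with TGANTCA, which 6.57% of windows hold. TATAAA was found before CCL20 and CXCL8, and in 10.7% of windows. Only stretches of 60 bases, set around the GGANNTTCC or κB match, were compared between genes, and the rest of the promoters was not. These stretches are given 5′ to 3′ on the strand of the gene, with the letters of those matches in capitals.
CXCL1, chr4:73869285-73869344, plus strand: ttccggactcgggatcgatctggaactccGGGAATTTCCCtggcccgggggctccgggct
CXCL2, chr4:74099243-74099302, minus strand: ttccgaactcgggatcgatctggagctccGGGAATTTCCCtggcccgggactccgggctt
CXCL3, chr4:74038738-74038797, minus strand: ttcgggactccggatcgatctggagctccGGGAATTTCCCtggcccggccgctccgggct
CXCL5, chr4:73998738-73998797, minus strand: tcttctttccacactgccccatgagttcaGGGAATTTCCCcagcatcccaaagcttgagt
CXCL6, chr4:73836559-73836618, plus strand: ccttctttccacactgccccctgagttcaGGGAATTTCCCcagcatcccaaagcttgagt
CXCL8, chr4:73740448-73740507, plus strand: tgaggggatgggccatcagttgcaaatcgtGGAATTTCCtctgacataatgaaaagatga
CCL20, chr2:227813733-227813792, plus strand: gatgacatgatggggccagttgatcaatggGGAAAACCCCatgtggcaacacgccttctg

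Aligned at the motif and compared position by position without gaps, CXCL5 and CXCL6 were identical at 58 of the 60 bases. By the same count CXCL1 and CXCL3 were identical at 55, CXCL1 and CXCL2 at 51, and CXCL2 and CXCL3 at 49. CXCL8 shared 26 bases with CXCL1 and 19 with CXCL5. A base missing from 1 stretch moves those after it out of register, so these counts do not rank the genes by similarity. In the 6 CXC genes the first base of GGANNTTCC lay 77 to 91 bases before the start, and in CCL20 the κB match began 79 bases before it. A match of letters does not show that a factor bound there.

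**Figure D1:**
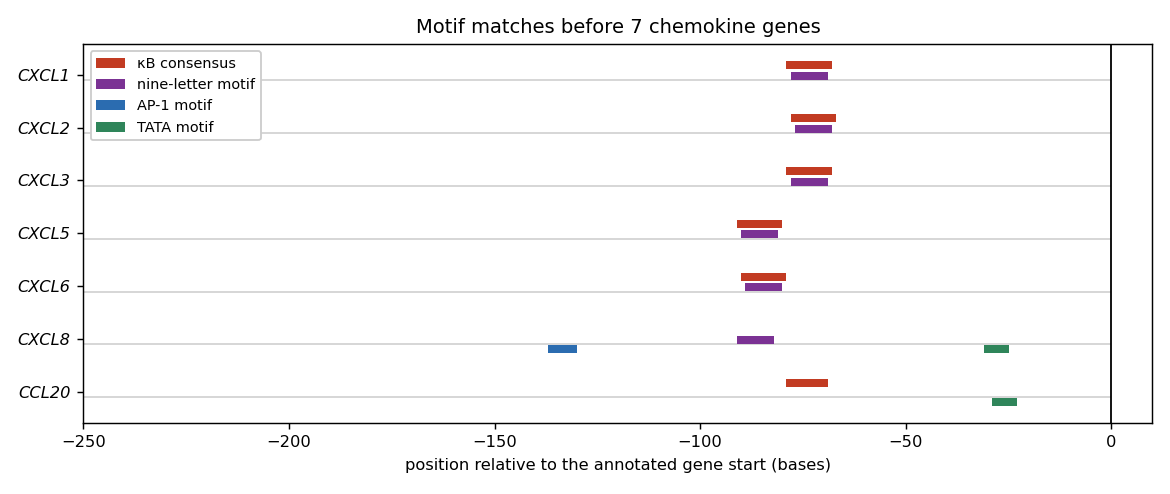
Positions of motif matches (horizontal axis, bases relative to the annotated gene start at 0) in the 250 bases before the 7 chemokine genes with a promoter window, 1 row per gene, with matches on either strand drawn as bars to scale. The TATA motif is TATAAA, drawn before CCL20 and CXCL8. The nine-letter motif GGANNTTCC lies 77 to 91 bases before the start of all 6 CXC genes, and the κB match of CCL20 begins at 79 bases.

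Between the duplicates of a group, log2 signal correlated across probesets at r = 0.967 to 0.980, and between arrays that differed in FGF19 at 0.933 to 0.959. Array medians of signal ran from 103 to 106.6 with FGF19 and from 99.5 to 102.4 without it. The 20th percentiles ran from 34.6 to 36.6 with FGF19 and from 30.7 to 31.6 without it. No further scaling was applied in the main fit, so its comparisons of FGF19 carry this shift. For FGF19 against Mock the median log2 difference over all probesets was 0.081, and −0.002 after quantile normalization, an alternative described below. For FGF19 + TNFα against TNFα these medians were 0.104 and 0.01. The 10 chemokine genes lay above the 20th percentile of signal on every array, which was 30.7 to 36.6, but CCL2 and CX3CL1 lay below the array median on all 8 arrays and CXCL6 and CCL5 on 6 of 8. Of the epithelial markers, the lowest group mean was 566, for CDH1 in Mock. KRT8 was lower with FGF19 than in Mock (log2 difference −1.05), while KRT18 had −0.24, EPCAM −0.13 and CDH1 0.23. The sum of these 4 markers was 6174 to 6322 with FGF19 + TNFα and 7333 to 7381 with TNFα. It was 5905 to 6381 with FGF19 and 7832 to 8135 in Mock. The prostate gene KLK3, which DU145 cells hardly express, had group means of 40.4 to 49.9. PTPRC, the defining marker of leukocytes, lay below the 20th percentile on all 8 arrays, although the summed signal of 4 leukocyte markers was 203 to 225 with FGF19 + TNFα, 172 on both TNFα arrays, 205 to 221 with FGF19 and 175 to 184 in Mock. LYZ (log2 difference 0.79) and CD3E (0.56) of that list were higher with FGF19 than in Mock. Both lay below the array median on all 8 arrays, and LYZ below the 20th percentile on 3. In the same comparison CD14 had −0.25 and PTPRC 0.58, neither at an adjusted p under 0.05 by limma. Of 3 fibroblast markers, DCN lay below the 20th percentile on all 8 arrays and COL3A1 below the array median on all 8. COL1A1, with group means of 106 to 119, lay below the median on 1 array. Of 3 endothelial markers, PECAM1 and VWF lay below the array median on all 8 arrays. CDH5, with group means of 326 to 399, lay above it on all 8. The sum of the 3 fibroblast markers was 215.4 to 243.9 with FGF19 + TNFα and 184.5 to 189.8 with TNFα. It was 206.5 to 231 with FGF19 and 198.8 to 205.4 in Mock. The sum of the 3 endothelial markers was 458.8 to 466.9 with FGF19 + TNFα and 416.6 to 451.3 with TNFα. With FGF19 it was 498.7 to 511.2, and in Mock 441.5 to 443.8. The part of these shifts in the results was not tested. In cultured cells measured in bulk, fewer cells that express a gene and less RNA per cell cannot be told apart.

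Most of the chemokine genes were higher with TNFα, and several were also higher with FGF19 in its absence. Relative to Mock, TNFα gave higher signal for 6 of the 10 genes, CXCL1, CXCL2, CXCL5, CXCL8, CCL20 and CCL5, at an adjusted p under 0.05 from limma, where 0.967% of all probesets were called higher and 0.0961% lower. The median log2 difference of the 10 genes was 1.40, against −0.035 over all probesets. FGF19 gave higher signal than Mock for 6 genes, CXCL1, CXCL2, CXCL5, CXCL6, CXCL8 and CCL20, with a median of 0.52 against 0.081 over all probesets. In that comparison 18.2% of all probesets were called higher and 14.1% lower, so that single calls were common. Of the 10 genes 0 were called lower in these comparisons, also at an unadjusted p under 0.05. By the moderated F test at an adjusted p under 0.015, 7 of the 10 genes differed among the 4 groups, against 20.9% of probesets. Only this cutoff is that of the study, which ran an analysis of variance in other software on fewer probesets. The calls are therefore not those of the study, whose lists of changed probesets do not hold that of CCL5. With 2 arrays a group, an exact permutation test of a single gene cannot go below a two-sided p of 0.333, so the tests rest on the spread shared across probesets.

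**Figure D2:**
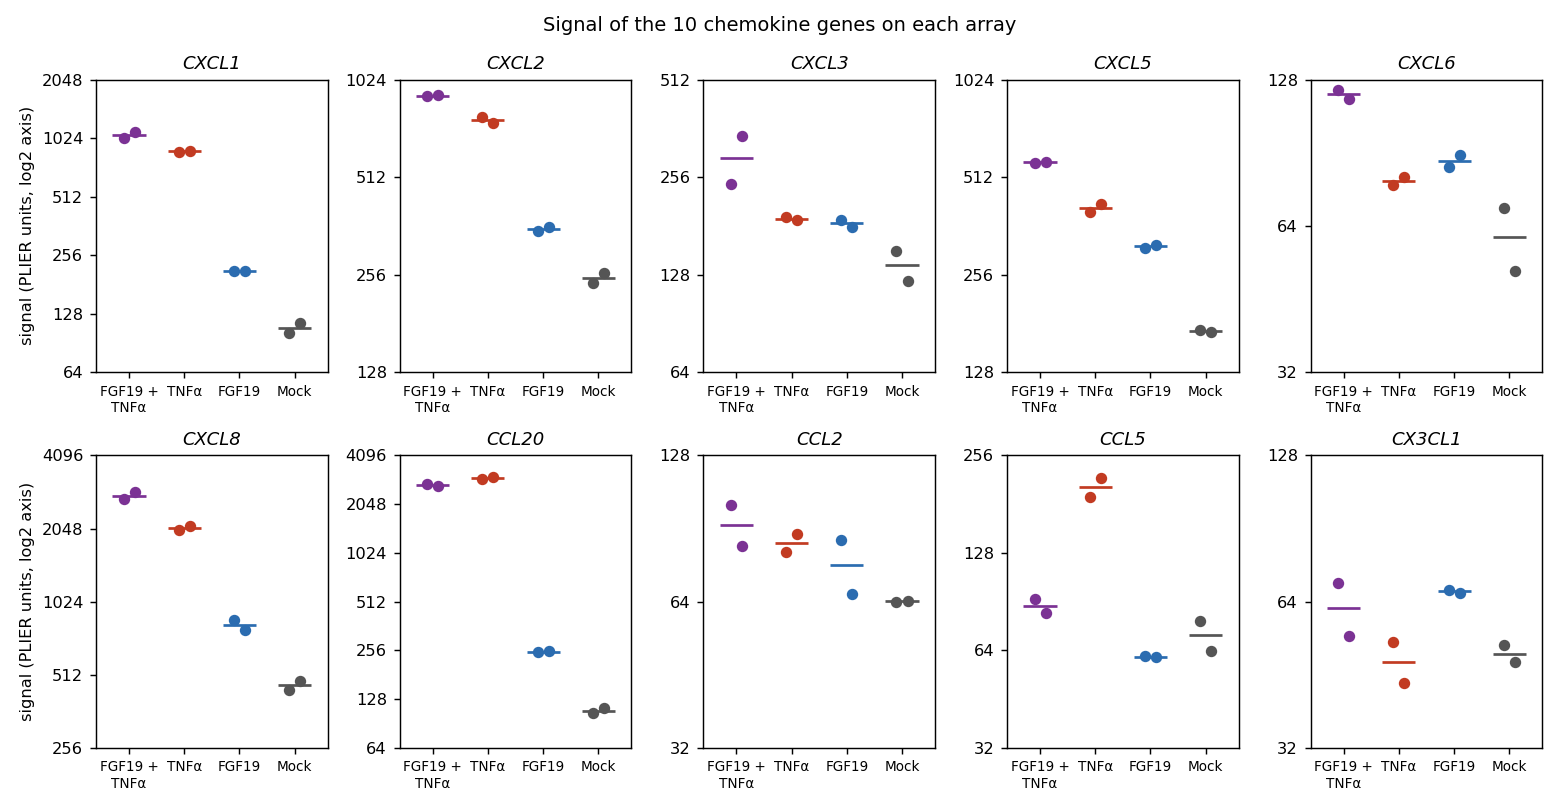
Signal of each chemokine gene (vertical axis, PLIER units on a log2 axis that differs between panels) in FGF19 + TNFα, TNFα, FGF19 and Mock. Points are the 2 arrays of a group and lines their mean: CXCL1, CXCL2, CXCL5 and CXCL8 step down from left to right, whereas CCL5 is high on the TNFα arrays alone, at 191 and 218.

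CXCL8, which encodes interleukin-8, had a signal of 2708 and 2892 with FGF19 + TNFα, 2010 and 2093 with TNFα, 858 and 784 with FGF19, and 444 and 484 in Mock. The 4 groups did not overlap and stood in that order, each above the next. TNFα raised it 4.43-fold relative to Mock (log2 difference 2.15, SE 0.10, adjusted p = 0.000886), and FGF19 raised it 1.77-fold (0.82, SE 0.10, adjusted p = 0.00312). FGF19 + TNFα exceeded TNFα 1.36-fold (0.45, SE 0.10, adjusted p = 0.0166). CXCL1 followed the same order, at 1032 and 1103 with FGF19 + TNFα, 870 and 880 with TNFα, 212 on both FGF19 arrays, and 101 and 115 in Mock. Again no group overlapped another. CXCL1 was 8.11-fold higher with TNFα than in Mock (log2 difference 3.02, SE 0.10, adjusted p = 0.000372) and 1.97-fold higher with FGF19 than in Mock (0.98, SE 0.10, adjusted p = 0.00276). Its 1.22-fold difference between FGF19 + TNFα and TNFα did not pass (0.29, 95% confidence interval 0.05 to 0.52, adjusted p = 0.0654).

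CXCL2 had a signal of 913 and 917 with FGF19 + TNFα, 783 and 751 with TNFα, 348 and 360 with FGF19, and 241 and 259 in Mock. It kept the order of CXCL8 and CXCL1, with no overlap of groups. It rose 3.07-fold with TNFα (log2 difference 1.62, SE 0.08, adjusted p = 0.00137) and 1.42-fold with FGF19 (0.50, SE 0.08, adjusted p = 0.00689) relative to Mock. Between FGF19 + TNFα and TNFα the difference was 0.25 on the log2 scale (95% confidence interval 0.05 to 0.46, adjusted p = 0.0616). CXCL3, whose promoter stretch matched that of CXCL1 at 55 of 60 bases, had 244 and 344 with FGF19 + TNFα, 193 and 188 with TNFα, 189 and 180 with FGF19, and 151 and 122 in Mock. The arrays given TNFα or FGF19 alone overlapped, and the FGF19 + TNFα arrays lay above the rest but far apart from each other. CXCL3 did not pass for TNFα against Mock (0.49, 95% confidence interval 0.05 to 0.93, adjusted p = 0.358) or for FGF19 against Mock (0.44, adjusted p = 0.118), and passed narrowly for FGF19 + TNFα against TNFα (0.61, SE 0.18, adjusted p = 0.0478). That call was lost in 11 of 16 alternatives, among them unmoderated variances (adjusted p = 0.111) and a fit of only the groups compared (0.0932), and without FGF19 + TNFα replicate 2 the difference was 0.36 (0.171). CXCL1, CXCL2 and CXCL3 are close copies of one another, and their probesets may also measure each other's transcripts.

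CXCL5 had a signal of 566 and 571 with FGF19 + TNFα, 400 and 424 with TNFα, 309 and 317 with FGF19, and 173 and 170 in Mock. Each group lay above the next with no overlap. CXCL5 was 2.41-fold higher with TNFα than in Mock (log2 difference 1.27, SE 0.08, adjusted p = 0.00214), 1.83-fold higher with FGF19 than in Mock (0.87, SE 0.08, adjusted p = 0.00275) and exceeded its TNFα level 1.38-fold with FGF19 + TNFα (0.46, SE 0.08, adjusted p = 0.0084). CXCL6, identical to CXCL5 at 58 of the 60 promoter bases shown, had 122 and 117 with FGF19 + TNFα, 77.6 and 80.7 with TNFα, 84.5 and 89.5 with FGF19, and 69.6 and 51.8 in Mock. Its FGF19 arrays lay above its TNFα arrays, the reverse of CXCL5. CXCL6 did not pass for TNFα against Mock (0.40, 95% confidence interval 0.04 to 0.75, adjusted p = 0.348), rose 1.45-fold with FGF19 relative to Mock (0.54, SE 0.15, adjusted p = 0.0349) and exceeded its TNFα level 1.51-fold with FGF19 + TNFα (0.59, SE 0.15, adjusted p = 0.0258). The call of CXCL6 for FGF19 against Mock ended after quantile normalization (adjusted p = 0.0696), after cyclic loess normalization (0.0534), with the variances unmoderated (0.08), with only the groups compared in the fit (0.0976) and without any 1 of the arrays other than Mock replicate 1 (0.0589 to 0.114). Without Mock replicate 2 its log2 difference was 0.32 (adjusted p = 0.112).

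CCL20 had a signal of 2743 and 2642 with FGF19 + TNFα, 2932 and 3030 with TNFα, 249 and 253 with FGF19, and 104 and 112 in Mock. The groups did not overlap, and TNFα, not FGF19 + TNFα, stood highest. CCL20 had the smallest p of all probesets for TNFα against Mock, with a 27.5-fold rise (log2 difference 4.78, SE 0.08, adjusted p = 3.6e-05). FGF19 raised it 2.32-fold relative to Mock (1.22, SE 0.08, adjusted p = 0.00275). Between FGF19 + TNFα and TNFα its difference was −0.15 on the log2 scale (95% confidence interval −0.35 to 0.05, adjusted p = 0.222). The rise with TNFα where FGF19 had been given was 10.7-fold (FGF19 + TNFα against FGF19, 3.42, SE 0.08, adjusted p = 0.000285).

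CCL5 was the 1 gene of the 10 called lower when FGF19 was added to TNFα. Its signal was 92.1 and 83.6 with FGF19 + TNFα, 191 and 218 with TNFα, 61.5 and 60.9 with FGF19, and 79.0 and 63.5 in Mock. The TNFα arrays alone were high, and the FGF19 + TNFα arrays lay only slightly above the Mock arrays. CCL5 rose 2.88-fold with TNFα relative to Mock (log2 difference 1.53, SE 0.14, adjusted p = 0.00691) and lay 2.33-fold below its TNFα level with FGF19 + TNFα (−1.22, SE 0.14, adjusted p = 0.00355). Its difference between FGF19 + TNFα and FGF19 did not pass (0.52, 95% confidence interval 0.19 to 0.85, adjusted p = 0.458), nor did that between FGF19 and Mock (−0.21, 95% confidence interval −0.54 to 0.12, adjusted p = 0.285). The rise with TNFα no longer passed without Mock replicate 2 (adjusted p = 0.0504) or TNFα replicate 2 (0.0588), with the variances unmoderated (0.0585) or with only the groups compared in the fit (0.0861), whereas the difference between FGF19 + TNFα and TNFα passed under every alternative run (adjusted p at most 0.0303).

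CCL2 and CX3CL1 passed in none of the comparisons, by limma on all 8 arrays. CCL2 had a signal of 101 and 83.4 with FGF19 + TNFα, 81.0 and 88.4 with TNFα, 85.8 and 66.5 with FGF19, and 64.0 and 64.1 in Mock. All treated arrays lay above the Mock arrays, but those of the treated groups overlapped (TNFα against Mock 0.40 on the log2 scale, 95% confidence interval 0.03 to 0.78, adjusted p = 0.375). CX3CL1 had 70.0 and 54.3 with FGF19 + TNFα, 52.8 and 43.4 with TNFα, 67.6 and 66.7 with FGF19, and 52.0 and 48.1 in Mock. Its TNFα and Mock arrays overlapped (−0.06, 95% confidence interval −0.44 to 0.31, adjusted p = 0.896), and its FGF19 arrays lay above the Mock arrays without passing (0.43, adjusted p = 0.0833).

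When FGF19 was added to TNFα, 4 of the 10 genes were higher than with TNFα alone, CXCL3, CXCL5, CXCL6 and CXCL8, and CCL5 was lower. All 4 were CXC genes, and the other CXC genes, CXCL1 and CXCL2, had log2 differences of 0.29 and 0.25 without passing, although each passed in 3 of 16 alternatives (lowest adjusted p 0.0404 for CXCL1 and 0.03 for CXCL2). Over all probesets 19.4% were called higher and 12.9% lower in this comparison, and the median log2 difference was 0.104, against 0.33 for the 10 genes. With 1 array left out the differences stayed at 0.42 to 0.51 for CXCL5, 0.57 to 0.62 for CXCL6 and 0.40 to 0.50 for CXCL8, and ranged from 0.36 to 0.85 for CXCL3, but calls were lost: 0 of the 4 passed without TNFα replicate 1 or without FGF19 + TNFα replicate 2, and 1, that of CXCL5, without TNFα replicate 2. Without TNFα replicate 1 the adjusted p was 0.134 for CXCL3, 0.0556 for CXCL5, 0.105 for CXCL6 and 0.0852 for CXCL8, and it was 0.0524 to 0.171 for the 4 genes without FGF19 + TNFα replicate 2. With any other array left out 3 of the 4 passed, and after cyclic loess normalization 2, CXCL5 and CXCL8.

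**Figure D3:**
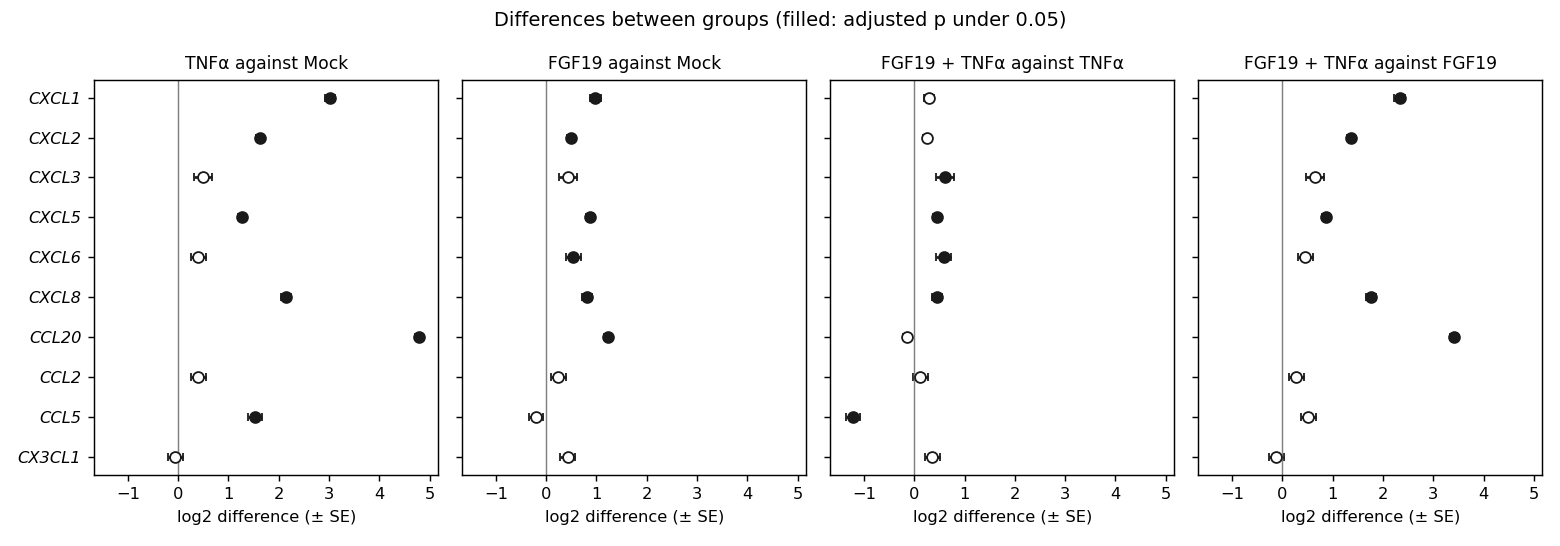
Log2 difference of group means (horizontal axis) with its standard error for each chemokine gene in 4 comparisons, filled where the adjusted p from limma was under 0.05. CCL20 lies farthest right for TNFα against Mock, at 4.78, and CCL5 is the only filled point left of 0, at −1.22 for FGF19 + TNFα against TNFα.

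Cells given FGF19 and heparin still showed higher chemokine signal with TNFα. Relative to FGF19, FGF19 + TNFα gave higher signal for 5 of the 10 genes, CXCL1 by 5.02-fold, CXCL2 by 2.58-fold, CXCL5 by 1.82-fold, CXCL8 by 3.41-fold and CCL20 by 10.7-fold, where 0.279% of all probesets were called higher and 0.003% lower. These 5 genes were among the 6 that TNFα raised relative to Mock, and CCL5 was the other. Without FGF19 + TNFα replicate 2, 2 of the 5 passed, CXCL1 and CCL20, and 0 passed when only the groups compared entered the fit (adjusted p 0.073 to 0.325). CXCL5 (adjusted p = 0.0172) no longer passed without any 1 of the 8 arrays (0.0709 to 0.191).

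The responses to TNFα with and without FGF19 were compared through their interaction, the difference between the log2 changes. For CCL20 the interaction was −1.36 (95% confidence interval −1.65 to −1.08), the smallest p of all probesets, but the adjusted p was 0.293. With a trended and robust prior for the variances it was 0.0184, the lowest of 15 alternatives, in which it reached 0.637. The interactions of CCL5 (−1.01), CXCL1 (−0.69), CXCL5 (−0.41) and CXCL8 (−0.38) were also below 0 at an unadjusted p under 0.05. Of the 10 genes 0 passed after adjustment and 5 before it, against 0% and 5.15% of all probesets by limma. CXCL2 (−0.25), CCL2 (−0.12), CX3CL1 (−0.06), CXCL6 (0.06) and CXCL3 (0.17) had intervals that included 0.

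Of 30 other measured chemokine ligands, 10 were under an unadjusted p of 0.05 by limma for TNFα against Mock, in either direction. Over all probesets 12.5% were, and the median log2 difference of the 30 ligands was 0.01. CXCL10, an interferon-inducible ligand of CXCR3, was the 1 gene of the 30 called higher (log2 difference 2.65, SE 0.16, adjusted p = 0.00166). Its mean signal was 93.4 with FGF19 + TNFα, 168 with TNFα, 34.0 with FGF19 and 26.5 in Mock, below the 20th percentile on 3 of the 8 arrays, so that the size of the rise is uncertain. Like CCL5 it was lower with FGF19 + TNFα than with TNFα (−0.84, SE 0.16, adjusted p = 0.0104). In that comparison 9 of the 30 ligands were higher and 2 lower, CXCL10 being among the lower, where 19.4% of all probesets were higher and 12.9% lower. The higher ones included PF4 (0.46), the mucosal chemokine CCL28 (0.48) and XCL2, which was below the 20th percentile on all 8 arrays. Except for CCL28 and CXCL16, the higher ones lay below the array median on all 8 arrays. The 20th percentile of signal was itself higher with FGF19, and the part of that shift in these calls was not tested. Relative to Mock, 5 of the 30 were higher with FGF19, a share no larger than the 18.2% of all probesets, among them CXCL16, a transmembrane ligand of CXCR6, by 1.49-fold (0.58, adjusted p = 0.00918), and PF4, by 1.41-fold. Of the chemokine genes between CXCL8 and CXCL2 on chromosome 4, PF4V1, PF4 and PPBP did not pass for TNFα against Mock (log2 differences of −0.11, 0.05 and 0.27). GGANNTTCC was found before 3 of 26 other ligands with a promoter window, CXCL10, CXCL11 and CCL1. For TNFα against Mock, CXCL11 (log2 difference 1.05, SE 0.22, adjusted p = 0.127) and CCL1 (−0.14, adjusted p = 0.769) did not pass by limma.

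**Figure D4:**
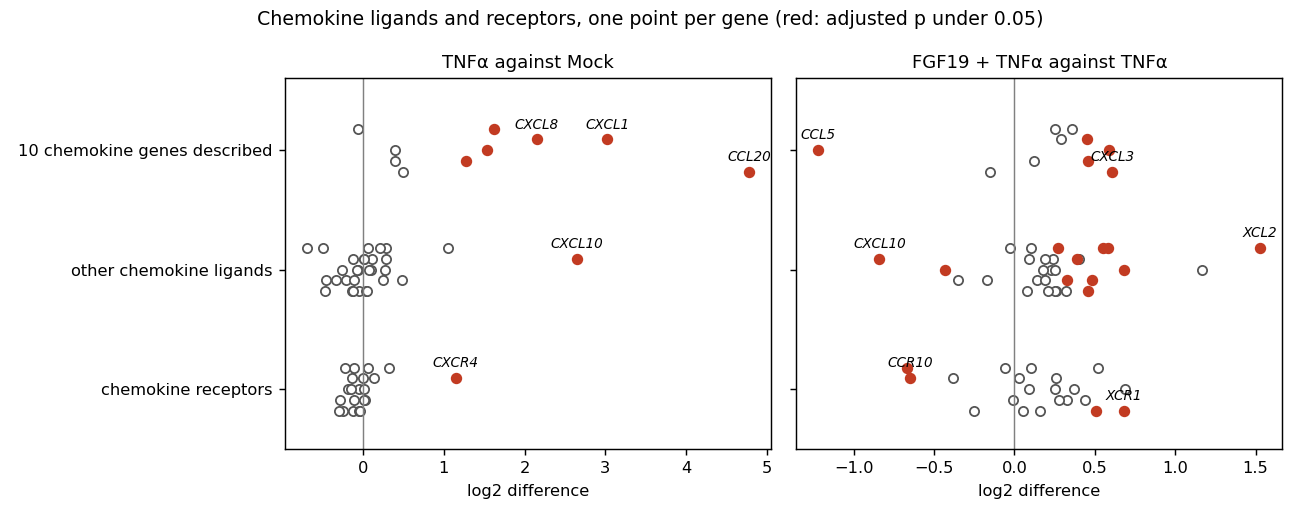
Log2 difference (horizontal axis) of the 10 chemokine genes, 30 other chemokine ligands and 21 chemokine receptors, 1 point per gene, red where the adjusted p was under 0.05, with vertical offsets only to separate points. For TNFα against Mock, CXCL10 at 2.65 and CXCR4 at 1.15 are the only red points outside the 10 genes. For FGF19 + TNFα against TNFα, CCL5 and CXCL10 lie farthest left.

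Of 21 measured chemokine receptors, CXCR4, the receptor of CXCL12, was higher with TNFα than in Mock (mean signal 225 with TNFα and 101 in Mock, log2 difference 1.15, adjusted p = 0.013). CCR10 was lower with FGF19 than in Mock (154 with FGF19 and 265 in Mock, −0.78, adjusted p = 0.00303), and also lower with FGF19 + TNFα than with TNFα (−0.65, adjusted p = 0.00475). Over the 21 receptors, 2 were higher and 1 lower in the first of these comparisons, and 2 higher and 2 lower in the second, shares below those of all probesets (18.2% higher and 14.1% lower in the first, 19.4% and 12.9% in the second). CXCR2, the receptor shared by the 6 CXC ligands, lay below the 20th percentile on all 8 arrays, as did the CX3CL1 receptor gene CX3CR1. CCR6, the receptor gene of CCL20, had a mean signal of 44.6 to 51.1 and lay below the array median on all 8 arrays. Of 6 proteases that process chemokines, 0 passed for TNFα against Mock by limma, and 3 were under an unadjusted p of 0.05, against 12.5% of all probesets. For FGF19 against Mock 1 of the 6 was higher, a share no larger than the 18.2% of all probesets. It was ADAM17, which sheds CX3CL1 (log2 difference 0.30, adjusted p = 0.0288).

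Of 14 transcription factor genes known at chemokine promoters, 8 were higher with TNFα than in Mock, where 0.967% of all probesets were, and 6 were higher and 2 lower with FGF19 than in Mock, where 18.2% and 14.1% of all probesets were. IRF1 rose by 2.87 on the log2 scale with TNFα, the κB inhibitor-like cofactor gene NFKBIZ by 2.20, NFKB2 by 1.27 and REL by 1.12. REL, a subunit of NFκB, was also higher with FGF19 than in Mock (0.83, adjusted p = 0.00298) and higher with FGF19 + TNFα than with TNFα (0.53, adjusted p = 0.0093), and RELA was 0.41 higher in that last comparison (adjusted p = 0.0101). Of the 14 genes 4 were higher and 5 lower there, against 19.4% and 12.9% of all probesets. The lower ones included 2 further NFκB subunit genes, RELB by 2-fold (adjusted p = 0.00695) and NFKB2 (−0.43, adjusted p = 0.0104), by limma. The subunit gene NFKB1 had −0.11 without passing. With FGF19 + TNFα against FGF19, 5 of the 14 were higher, against 0.279% of all probesets. Of 7 regulators of chemokine mRNA decay, 3 were higher with TNFα than in Mock, ZFP36 by 1.60 on the log2 scale, ZC3H12A by 1.31 and ZFP36L2 by 0.63, and 3 were higher with FGF19 than in Mock, beside the same shares of all probesets as for the transcription factors.

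Across the 8 arrays, the signal of CXCL1, CXCL2 and CXCL8 moved together most closely among the 10 genes (r = 1.00 for each pair in log2 signal), and CXCL5 correlated with them at 0.95 to 0.97. These values describe 8 arrays in 4 groups and share the difference between arrays with and without TNFα. CCL5 correlated with CXCL8 at 0.58 and with CXCL6 at 0.06. Among 4907 probesets with 1 symbol that passed the F test, BAMBI (r = 0.999), TNFAIP3 and STAT5A (0.997 each) were most like CCL20. The complement gene C3 was among the 3 nearest to each of CXCL1, CXCL2 and CXCL8 (0.995 to 0.997), and IRAK3 (0.996), HIVEP2 (0.995) and REL (0.994) were nearest to CXCL5. The nearest to CCL5 were LYPD3 (0.986), the cell cycle inhibitor gene CDKN1A (0.982) and KLF6 (0.977), and GABPB1 (0.981) was nearest to CXCL6. LYPD3 had the pattern of CCL5, with a mean signal of 193 with FGF19 + TNFα, 522 with TNFα, 102 with FGF19 and 144 in Mock.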

How the data were processed

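The authors deposited 1 table of signal intensity on a linear scale for 33297 probesets, made with Affymetrix Expression Console and PLIER according to the submitters' processing notes. For their versions and the normalization, no value is given in the sources used here. Groups and replicate numbers came from the sample labels, and no column was left out. Before log2, zeros (240 values) were replaced by the lowest positive value on the same array, 0.01. The 4 group means were modelled together over the 8 arrays in limma 3.58.1 (lmFit and eBayes, R 4.3.3), after a test on simulated data, and p-values were adjusted over all probesets by the method of Benjamini and Hochberg. Single-symbol probesets (19460) were named from the platform annotation, updated through Entrez identifiers for 19429, while 1754 listed several symbols and 12083 none. A gene with several probesets was represented by its brightest. The genes named were all 10 members, up to 4 genes of each list per comparison with the smallest p, markers, and the 3 probesets most correlated with each member that passed the F test. Other genes are named for their role or place beside the members (CXCL11, CCL1, CXCR2, CX3CR1, CCR6, PF4V1, PPBP, KLK3), irrespective of their values. Members and lists were chosen with earlier results of these data known. Figures were drawn with matplotlib 3.10.9. Alternatives were 2 normalizations, an offset of 16, removal of probesets in the lowest 20 percent, no moderation, a trended and robust prior, only the groups compared, the replicate number as a block, and each array left out.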

Additional observations from a re-analysis of the deposited data

How the results depend on the processing

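The number of arrays limits the precision, and where 1 array was left out, the remaining array of its group was assumed to vary like those of the other groups. In FGF19 + TNFα against TNFα, 4 of the 10 chemokine genes were higher, and 2 after cyclic loess normalization, 0 to 3 with 1 array left out, 5 with the offset of 16 (CXCL1 gained) and 6 without the dimmest 20 percent or with a trended and robust prior (CXCL1 and CXCL2 gained). In FGF19 + TNFα against FGF19, 5 were higher, and 0 with only the groups compared and 2 to 4 with 1 array left out. For the interaction, 1 gene, CCL20, passed below 0 with a trended and robust prior. Counts for TNFα against Mock (5 or 6 genes higher), FGF19 against Mock (5 to 7) and the F test (6 to 8) stayed within 1.5 times. Signs turned only for values that had not passed. After cyclic loess normalization CCL2 was −0.01 in FGF19 + TNFα against TNFα and the interaction of CXCL6 was −0.01. With 1 array left out the interactions ranged from −0.3 to 0.06 for CCL2, −0.16 to 0.27 for CXCL6, −0.08 to 0.41 for CXCL3 and −0.24 to 0.12 for CX3CL1, the difference of CX3CL1 from −0.2 to 0.08 in TNFα against Mock and from −0.31 to 0.06 in FGF19 + TNFα against FGF19, and that of CCL2 from −0.02 to 0.26 in FGF19 + TNFα against TNFα. The causes were not tested. The labels give all groups the replicate numbers 1 and 2 without saying that a number marks a shared day. Deviations of same-numbered arrays correlated at −0.02 to 0.195 between groups, so the numbers were not taken as pairs. With the replicate block, 6 genes were higher for TNFα against Mock, 7 for FGF19 against Mock (CX3CL1 gained, adjusted p = 0.0434), 3 higher and 1 lower for FGF19 + TNFα against TNFα (CXCL3 lost, 0.0688), and 4 for FGF19 + TNFα against FGF19, where CXCL5 was no longer called (adjusted p = 0.0525).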

Other observations

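A scale chosen after the data were seen turned the interaction of 4 chemokine genes. In log2 signal 8 of the 10 interactions were below 0, whereas in linear signal 6 were above 0. CXCL8 gained 1980 units with TNFα where FGF19 had been given (FGF19 + TNFα minus FGF19) and 1590 where it had not (TNFα minus Mock), although the log2 interaction was −0.38. The gain where FGF19 had been given was larger by 88.2 units for CXCL1, by 43.3 for CXCL2 and by 14.4 for CXCL5, each with a log2 interaction below 0. CCL20 and CCL5 were below 0 on both scales, with gains of 2440 and 2870 units with and without FGF19 for CCL20 and of 26.7 and 133 units for CCL5. These linear differences are values with no test.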
